A study of Mus musculus with 4 samples.

Results

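The enzymes described here take up the products of the branched-chain ketoacid dehydrogenase (BCKDH) complex and carry leucine, isoleucine and valine through the distal part of their breakdown. Their transcripts were followed here in brown adipose tissue (BAT) of WT mice. The 10 genes were picked by symbol, as the enzymes that act after BCKDH, from the 17259 genes of the deposited expression table, and all 10 were found in it. Of these, 4 belong to the leucine arm (Ivd, Mccc1, Mccc2 and Auh), 1 to the isoleucine arm (Acadsb) and 3 to the valine arm (Hibch, Hibadh and Aldh6a1). The other 2, Pcca and Pccb, encode the subunits of propionyl-CoA carboxylase, which isoleucine and valine share. RNA-seq had been done on 4 libraries, 2 titled BAT-Mito and 2 titled BAT-total. BAT-Mito libraries came from mitochondria isolated from BAT, and the treatment label of BAT-total names tissue without its mitochondria, although the titles and the study speak of total BAT. Whether the BAT-total libraries still held mitochondria therefore cannot be told from the labels. All 4 libraries carry the genotype WT and no drug or diet, and the labels give no age, strain or pooling of animals. In the protocol given for heart, isolated mitochondria were treated with digitonin and RNase A before RNA was extracted.

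BCKDH commits the ketoacids of all 3 branched-chain amino acids to oxidation inside the mitochondrial matrix. Leucine carbon then passes through isovaleryl-CoA dehydrogenase, methylcrotonyl-CoA carboxylase and methylglutaconyl-CoA hydratase to acetyl-CoA and acetoacetate. Isoleucine and valine end in propionyl-CoA, which a biotin-dependent carboxylase turns towards the citric acid cycle. Brown fat burns these amino acids during heat production. The enzymes are encoded in the nucleus, made on cytosolic ribosomes and imported, usually by an N-terminal presequence that is rich in arginine and poor in acidic residues. The question addressed here was how transcripts of the arms were divided between isolated mitochondria and BAT-total.

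The first 60 coding bases of 6 members are given because they encode the start of this presequence and the mRNAs of such proteins are the ones compared below. Capitals mark the start codon and every in-frame arginine codon, and each sequence is the coding strand of GENCODE M21 (GRCm38). The 6 cover each arm and include Ivd and Hibch, the 2 members whose BAT-Mito replicates lay furthest apart.
Ivd: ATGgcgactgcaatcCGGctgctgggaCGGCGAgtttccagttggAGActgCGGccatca
Mccc2: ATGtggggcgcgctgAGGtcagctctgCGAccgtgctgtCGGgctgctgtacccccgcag
Acadsb: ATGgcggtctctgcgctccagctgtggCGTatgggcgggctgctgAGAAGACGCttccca
Hibch: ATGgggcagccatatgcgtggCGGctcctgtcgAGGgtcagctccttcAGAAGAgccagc
Pcca: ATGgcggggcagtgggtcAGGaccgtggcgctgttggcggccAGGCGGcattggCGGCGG
Pccb: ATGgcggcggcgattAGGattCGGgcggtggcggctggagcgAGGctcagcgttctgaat
These stretches lie at chr2:118862021-118862080 (Ivd, plus strand, exon 1), chr13:100015455-100015514 (Mccc2, minus strand, exon 1) and chr14:122534367-122534426 (Pcca, plus strand, exon 1). The Pccb stretch is at chr9:101034798-101034857 on the minus strand in exon 1. Those of Acadsb (chr7:131410746-131424489, plus strand) and Hibch (chr1:52845110-52853692, plus strand) run from exon 1 into exon 2. Over the first 30 codons the 10 members had a median of 4 arginine codons, from 2 to 7, against a median of 2 over 12923 coding genes of the table. No acidic codon was found there in 8 of the 10 members, compared with 11.9% of all those coding genes. Mccc1 (2 acidic codons) and Mccc2 (1) were the exceptions.

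A second set of sequences shows what the carboxylases have in common. Mccc1 and Pcca encode the biotin-carrying subunits, and biotin is attached to the lysine of a short Ala-Met-Lys-Met stretch. It was searched as in-frame GCN, ATG, AAA or AAG, ATG, on the coding strand only, and capitals mark it in 60 bases of each gene.
Mccc1: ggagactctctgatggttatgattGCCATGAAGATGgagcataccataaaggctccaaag
Pcca: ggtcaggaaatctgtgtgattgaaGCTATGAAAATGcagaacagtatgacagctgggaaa
The Mccc1 stretch lies at chr3:35960109-35960971 (minus strand, exons 18 and 19) and starts the motif at codon 675. The Pcca stretch lies at chr14:122887056-122887115 (plus strand, exon 23), with the motif at codon 688. The motif occurred in 28 of 12923 coding genes (0.217%), and none of the other 8 members held it.

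All 10 genes are protein-coding and nuclear. On GRCm38 the leucine arm genes are Ivd (chromosome 2, 118861954 to 118882909), Mccc1 (chromosome 3, 35959312 to 36000678), Mccc2 (chromosome 13, 99948530 to 100015639) and Auh (chromosome 13, 52835119 to 52929681). Acadsb spans 131410601 to 131448944 on chromosome 7. Of the valine arm, Hibch lies on chromosome 1 (52844929 to 52920986), Hibadh on chromosome 6 (52546228 to 52640389) and Aldh6a1 on chromosome 12 (84430717 to 84451004). Pcca spans 122534324 to 122891100 on chromosome 14 and Pccb 100982032 to 101034898 on chromosome 9. Aldh6a1 shares 1078 bp, 18.6% of its exonic bases, with Bbof1 on the opposite strand, and Pcca shares 241 bp (4.6%) with Ggact. Mccc1 shares 321 bp (2.9%) with B230207O21Rik, 198 bp (1.8%) with Mccc1os and 94 bp (0.9%) with Gm15952, all on the opposite strand. Hibadh shares 122 bp (1.2%) with the snoRNA Gm24355 on its own strand, which strand use could not separate. Strand use in counting is not given in the sources used here, so reads of these overlaps cannot be assigned with certainty. Bbof1 had normalised counts of 0 and 28 in BAT-Mito and 27 and 25 in BAT-total, below Aldh6a1 in each library. Ggact had 58 and 7 in BAT-Mito and 10 and 8 in BAT-total, and in BAT-Mito replicate 1 it was above Pcca, at 50. Besides Bbof1 in Aldh6a1 (172 bp) and 2 genes in Mccc1 (100 bp at most), no gene matched a member's coding sequence at 95% identity over 75 bp or more, and reads of the matching stretches are uncertain. Over whole transcripts, Auh matched 91 genes in stretches of up to 150 bp, so some of its reads outside the coding sequence are uncertain as well.

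Values below are normalised counts, that is, gene counts divided by a size factor of the library. One read was worth 8.32 units in BAT-Mito replicate 1 and 6.90 in replicate 2, so whole reads could be recovered there, 26288871 and 24910434 in all. The reads behind a unit of BAT-total are unknown, and the normalised totals there were 1590096 and 1905303. Intervals on reads are 95% exact Poisson intervals and cover counting error only. The labels do not say whether replicates were separate animals, so p-values measure only the spread between these libraries. All 12 brown adipocyte markers had reads or counts in 3 libraries, and 2 of them were at 0 in BAT-Mito replicate 2. Ucp1, the uncoupling protein that defines brown fat, had 1290 and 3554 in BAT-Mito and 4819 and 4185 in BAT-total. Liver transcripts set BAT-Mito replicate 1 apart, with 15 of 15 liver markers above replicate 2 and a summed value of 14121 against 1160, 324 and 74 in the other libraries.

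All 4 leucine genes were detected in every library. They had 5 to 24 reads each in BAT-Mito and normalised counts between 93 and 162 in BAT-total. Ivd, the dehydrogenase of isovaleryl-CoA, had 160 and 135 in BAT-total and 42 and 166 in BAT-Mito. The BAT-Mito values rested on 5 reads (interval 1.62 to 11.7) and 24 reads (15.4 to 35.7), so 1 replicate was far below BAT-total and the other just above it. Mccc1, the biotin-carrying subunit of methylcrotonyl-CoA carboxylase, had 162 and 146 in BAT-total and 100 and 159 in BAT-Mito, on 12 and 23 reads. These 2 groups overlapped. Mccc2, which encodes the other subunit of that carboxylase, had 117 and 94 in BAT-total and 75 and 41 in BAT-Mito, on 9 and 6 reads. Both BAT-Mito values lay below both of BAT-total. Auh, the hydratase of the next step and also known as an AU-rich RNA-binding protein, had 106 and 93 in BAT-total and 133 and 90 in BAT-Mito, on 16 and 13 reads. It was the single member whose mean was higher in BAT-Mito, 112 ± 30.4 (SD, n = 2) against 99.5 ± 9.19 (SD, n = 2), a difference smaller than the spread of the BAT-Mito pair.

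The isoleucine arm had 1 member. Acadsb, the short/branched-chain acyl-CoA dehydrogenase that oxidises 2-methylbutyryl-CoA, had 176 and 164 in BAT-total and 125 and 124 in BAT-Mito, on 15 and 18 reads. The BAT-Mito pair was nearly equal and lay below the BAT-total pair.

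All 3 valine genes were detected in every library, with 6 to 34 reads each in BAT-Mito. Hibch, the hydrolase that frees 3-hydroxyisobutyrate from CoA, had 220 and 182 in BAT-total and 50 and 221 in BAT-Mito. As for Ivd, BAT-Mito replicate 1 was low, on 6 reads (2.20 to 13.1), and replicate 2 was level with BAT-total, on 32 reads (21.9 to 45.2). Hibadh, the dehydrogenase of 3-hydroxyisobutyrate, had 167 and 171 in BAT-total and 83 in both BAT-Mito libraries, on 10 and 12 reads. It gave the tightest separation, at a ratio of means of 0.491. Aldh6a1, the methylmalonate semialdehyde dehydrogenase that makes propionyl-CoA, had 449 and 386 in BAT-total and 166 and 235 in BAT-Mito, on 20 and 34 reads. Its mean was 418 ± 44.5 (SD, n = 2) in BAT-total and 200.5 ± 48.8 (SD, n = 2) in BAT-Mito, without overlap.

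The 2 subunits of propionyl-CoA carboxylase differed from each other. Pcca, the biotin-carrying subunit, had 186 and 134 in BAT-total and 50 and 62 in BAT-Mito, on 6 and 9 reads. This was the lowest ratio of means of the 10, 0.350. Pccb, the carboxyltransferase subunit, had 282 and 272 in BAT-total and 141 and 248 in BAT-Mito, on 17 and 36 reads, at a ratio of 0.702. BAT-Mito lay below BAT-total for both subunits.

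**Figure D1:**
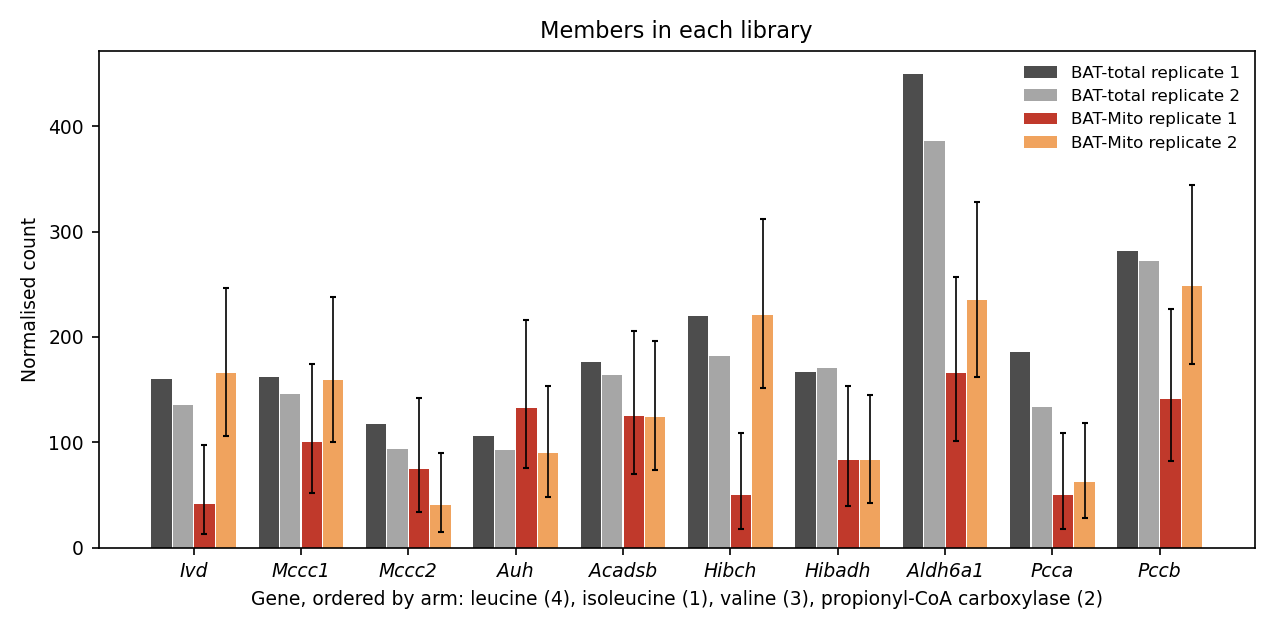
Normalised count (y axis) of each member (x axis, by arm) in the 4 libraries, one bar per library. Error bars on the BAT-Mito bars are 95% exact Poisson intervals of the reads times the units per read, and BAT-total bars have none because reads are unknown. Ivd and Hibch differ between the BAT-Mito replicates, 42 against 166 and 50 against 221, while Hibadh is 83 in both.

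The order of the members' levels was taken per kb of exon. In BAT-total the order ran from Pccb at 99.96 ± 2.55 (SD, n = 2) normalised counts per kb to Auh at 10.4 ± 0.960 (SD, n = 2). Aldh6a1 followed at 72.2 ± 7.70, and both BAT-total values of Pccb and Aldh6a1 lay above those of the next gene. Mccc2 (37.7 ± 5.80), Hibch (33.2 ± 4.43), Pcca (30.7 ± 7.06) and Ivd (26.8 ± 3.21) came next, and the libraries of neighbours among these 4 overlapped. Acadsb (23.7 ± 1.18) followed, and its higher library and the lower library of Ivd were tied at 24.5. Hibadh (16.6 ± 0.278) and Mccc1 (14.1 ± 1.03) preceded Auh, each separate from the gene before and after it. Even Auh ranked at percentile 78.4 of the nuclear coding genes of the table by BAT-total level per kb, and Pccb at 98.3. The order depended on which exons count as the gene. With the transcript of the longest coding sequence, Aldh6a1 (123 per kb) and Pccb (119 per kb) still led, but Hibch came at place 3 with 110 and Ivd last at 40.2, and none of the 10 kept its place.

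In each BAT-Mito library Pccb and Aldh6a1 were again first and second per kb of exon, at 50.9 and 28.7 in replicate 1 and 89.5 and 40.6 in replicate 2. Below them the order differed between the replicates. Hibch was at place 8 in replicate 1 and place 3 in replicate 2, and Ivd at places 10 and 4. Mccc2 was at place 3 in replicate 1 and place 6 in replicate 2.

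**Figure D2:**
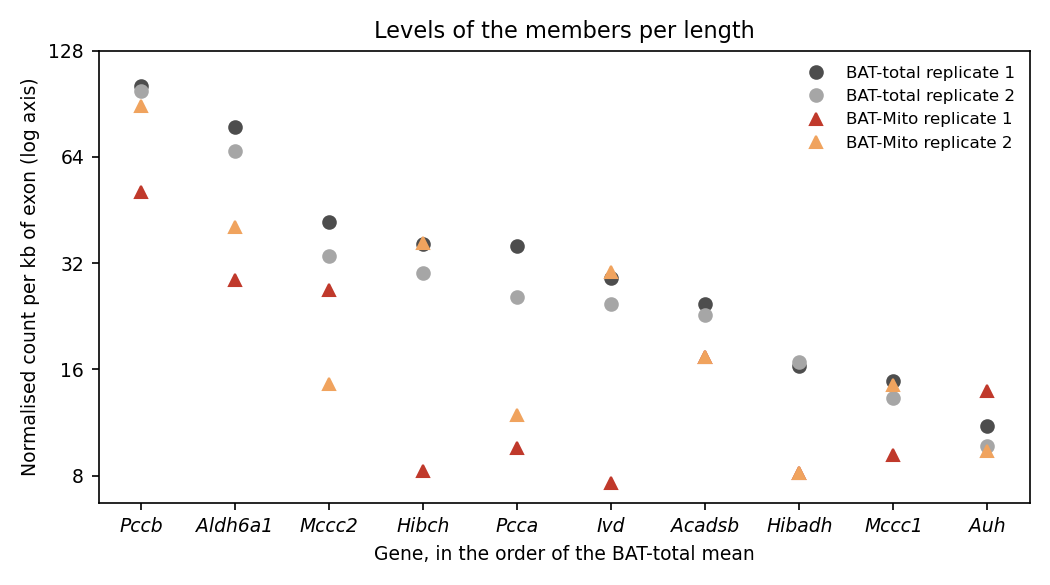
Normalised count per kb of exon (y axis, log scale) of the members (x axis, in the order of the BAT-total mean), with circles for BAT-total and triangles for BAT-Mito libraries. The order falls from 99.96 for Pccb to 10.4 for Auh in BAT-total, and the triangles of Ivd and Hibch are spread widest.

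Between the fractions, no member passed the test. Limma on log2(normalised count + 1) called 0 of the 10 members higher or lower in BAT-Mito at an adjusted p under 0.05, 1 member (Pcca) had an unadjusted p under 0.05 (18.1% of all genes did), and edgeR and DESeq2 on the reads also called 0. Over all 8215 genes tested, limma called 0.803% higher and 4.41% lower in BAT-Mito, edgeR 3.06% higher and 0.596% lower, and DESeq2 3.09% higher and 0.219% lower. With 2 libraries against 2, an exact permutation test of a single gene cannot go below p = 0.333. In these bulk fractions, fewer cells or mitochondria of a kind and less RNA in each cannot be told apart. Log2 fold changes (BAT-Mito minus BAT-total) of the members ran from -1.49 ± 0.46 (SE, limma) for Pcca to 0.14 ± 0.46 for Auh. Pcca had an adjusted p of 0.262, the lowest of the 10, and Auh 0.849, the highest. Hibadh (-1.02 ± 0.41, adjusted p = 0.303) and Aldh6a1 (-1.07 ± 0.46, adjusted p = 0.316) followed Pcca. Hibch (-0.92 ± 0.92) and Ivd (-0.80 ± 0.86) carried the largest standard errors, and their signs differed between the BAT-Mito replicates. Against the BAT-total mean, Ivd was at -1.78 in replicate 1 and 0.17 in replicate 2, and Hibch at -1.98 and 0.14. Mccc2 (-0.91 ± 0.54), Pccb (-0.56 ± 0.51), Acadsb (-0.45 ± 0.41) and Mccc1 (-0.28 ± 0.48) made up the rest.

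Most genes had a lower value in BAT-Mito, so the members' fold changes were set against those of the other genes. The members' median log2 fold change was -0.86 and that of all 8215 genes -1.23, so the members stood 0.37 above the median gene. This difference was 0.11 among genes with a mean of at least 50, and turned to -0.03 with a pseudocount of 10 and to -0.28 when values were scaled to the sum of all genes (CPM). Replicate 1 alone gave 0.06 and replicate 2 alone 0.61. Of the 10 members, 9 had a negative fold change, compared with 81.2% of all genes, and both BAT-Mito libraries lay below both BAT-total libraries for 6 members, at a background of 52.1%. No member lay above in both, at a background of 8.59%. Among the 1165 tested genes within the members' range of BAT-total levels, 94.4% had a negative fold change, 78.8% lay below in both libraries and 2.40% above, and the median was -1.29. Relative to the median gene, Pcca was the single member with a lower value, at -0.26, and Auh stood highest, at 1.37. The sign of several members depended on the scaling. With TMM, Mccc1, Acadsb and Pccb turned positive. Of the 10 members, 6 were then negative, against 68.6% of all genes, whose median was -0.66. With edgeR and with DESeq2, 4 of the 10 were negative, against 57.7% and 53.3% of all genes. After the data had been seen, values were also divided by the summed nuclear genes without a match to mitochondrial transcripts. Hibadh, Aldh6a1 and Pcca then had both BAT-Mito libraries below BAT-total (background 34.9%), and Auh and Acadsb both above (background 16.1%).

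**Figure D3:**
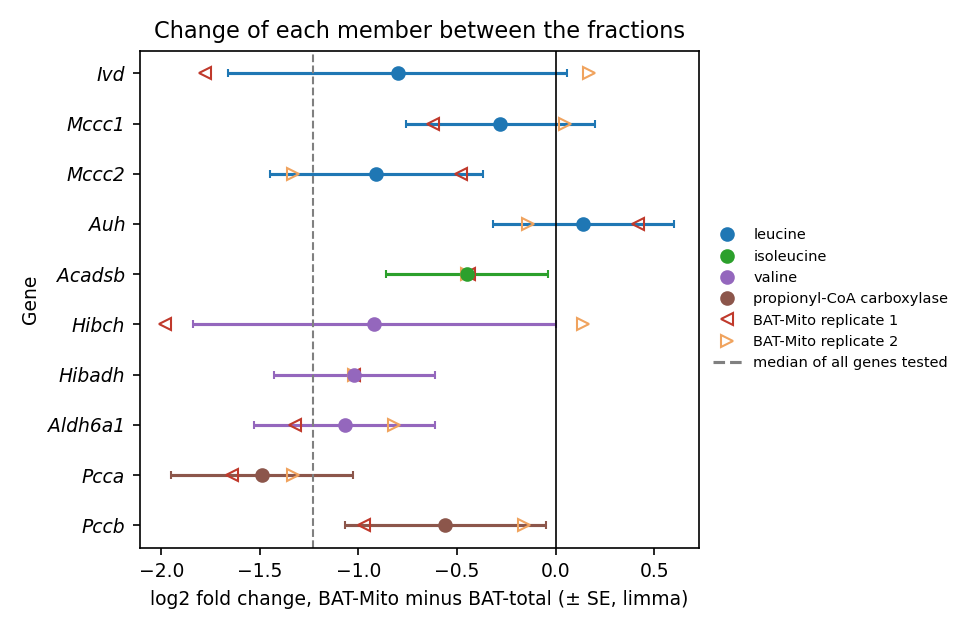
Log2 fold change of each member, BAT-Mito minus BAT-total (x axis), by gene (y axis), with filled circles and bars for the limma value ± SE and open triangles for each BAT-Mito replicate against the BAT-total mean. The dashed line is the median of all genes tested, -1.23, and among the filled circles only that of Pcca lies to its left.

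By arm, leucine transcripts made up a larger part of the members in BAT-Mito than in BAT-total, and valine transcripts a smaller part. Leucine genes held 26.9% and 26.3% of the summed members in BAT-total, compared with 36.3% and 31.9% in BAT-Mito replicates 1 and 2. The means were 26.6% ± 0.408 and 34.1% ± 3.08 (SD, n = 2 each), 7.46 percentage points apart. In replicate 1 the leucine share rested on 42 of 116 reads (95% Wilson interval 28.0% to 45.3%), which did not reach the BAT-total values. In replicate 2 it rested on 66 of 207 reads (25.9% to 38.5%), which included them. Such intervals cover counting error in BAT-Mito only, and the error of the BAT-total shares is unknown. Valine genes held 41.3% and 41.6% in BAT-total and 31.0% and 37.7% in BAT-Mito, on 36 reads (23.3% to 39.9%) and 78 reads (31.4% to 44.5%). Both BAT-Mito replicates thus lay on one side of both BAT-total libraries for leucine and on the other side for valine. The exact permutation test cannot go below p = 0.333 here. Propionyl-CoA carboxylase genes held 23.1% and 22.8% in BAT-total and 19.8% and 21.7% in BAT-Mito. Acadsb made up 8.69% and 9.23% in BAT-total and 13.0% and 8.68% in BAT-Mito, the last value level with BAT-total.

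Per kb of exon, the leucine share was 24.9% and 23.8% in BAT-total and 31.8% and 25.2% in BAT-Mito, so replicate 2 was nearly level with BAT-total. The valine share per kb was 33.5% and 33.3% in BAT-total and 25% and 31.3% in BAT-Mito. That of propionyl-CoA carboxylase, 35.3% and 36.3% in BAT-total and 33.5% and 37.2% in BAT-Mito, overlapped. Replicate 1, with the larger arm differences, was also the library with most liver and muscle RNA. Liver markers summed to 3.43% and 0.288% of nuclear coding genes in BAT-Mito and 0.0503% and 0.0117% in BAT-total, and skeletal muscle markers to 0.899% and 0.278% against 0.0540% and 0.119%. Their part in the arm shares was not tested.

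These shares do not depend on the scaling of a library, since each is taken within it. Auh carried part of the leucine difference. Without Auh, a choice made after its values were seen, leucine genes held 22.9% and 22.3% of the other 9 members in BAT-total and 26.1% and 27.3% in BAT-Mito. As fold changes, the leucine arm had a mean log2 value of -0.46 and the valine arm -1.0, a difference of 0.54. That difference was 0.82 in BAT-Mito replicate 1 and 0.25 in replicate 2. Leucine members themselves ranged from -0.91 (Mccc2) to 0.14 (Auh), a wider range than that of the valine members, from -1.07 (Aldh6a1) to -0.92 (Hibch). Together the 10 members made up 0.314% and 0.281% of the nuclear coding genes without a mitochondrial match in BAT-total. The same share was 0.235% (0.196% to 0.281%) on 116 reads in BAT-Mito replicate 1 and 0.355% (0.310% to 0.407%) on 207 reads in replicate 2. BAT-total averaged 0.297% ± 0.0237 and BAT-Mito 0.295% ± 0.0849 (SD, n = 2 each), and these means differed by less than the spread between replicates.

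**Figure D4:**
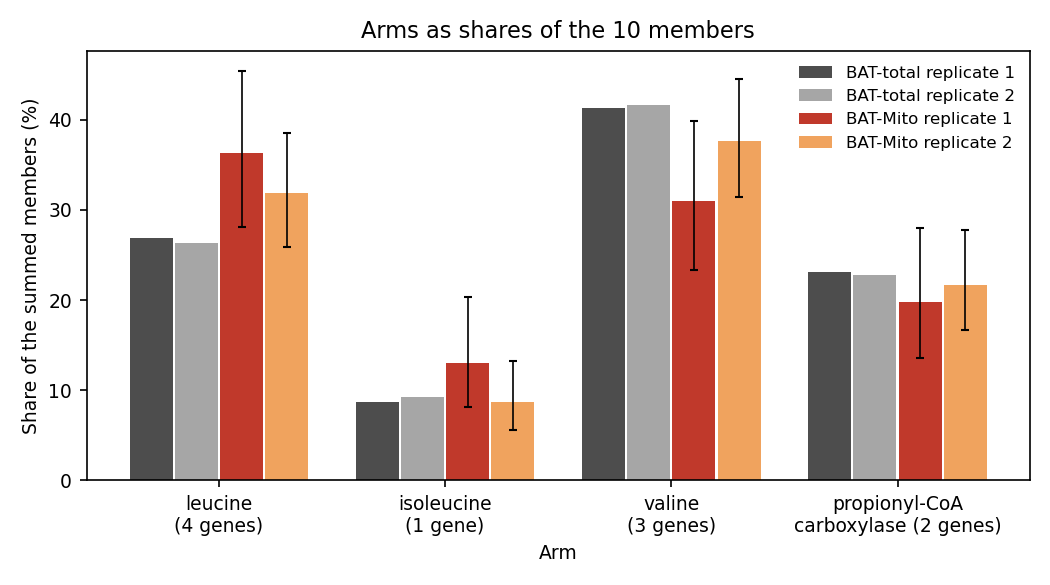
Share of the summed normalised counts of the 10 members (y axis, %) held by each arm (x axis) in the 4 libraries. Error bars on BAT-Mito bars are 95% Wilson intervals of the reads. Leucine is at 36.3% and 31.9% in BAT-Mito and 26.9% and 26.3% in BAT-total.

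The 2 BAT-Mito libraries disagreed on some members and not on others. Replicate 2 was 3.98 times replicate 1 for Ivd (95% exact counting interval 1.49 to 13.4) and 4.42 times for Hibch (1.82 to 12.9). For the other 8 members the interval held 1. Hibadh and Acadsb were each at 0.995, Pcca at 1.24, Aldh6a1 at 1.41, Mccc1 at 1.59 and Pccb at 1.76. Auh (0.674) and Mccc2 (0.553) leaned the other way. In BAT-total the ratio of replicate 2 to replicate 1 stayed between 0.720 (Pcca) and 1.02 (Hibadh), with Ivd at 0.844 and Hibch at 0.827. Over all genes tested, 7.91% lay above and 9.15% below replicate 1 beyond the counting interval. Among the 1165 tested genes within the members' range of BAT-total levels, 18.2% lay above and 8.1% below, so 2 of 10 members above is near what genes of this level showed. Brown adipocyte markers moved the same way, summing to 0.690% of nuclear coding genes in replicate 1 and 1.95% in replicate 2, with 4 of 12 higher in replicate 1. Liver markers moved opposite, from 3.43% to 0.288%, and skeletal muscle markers from 0.899% to 0.278%. Their part in the difference between the replicates was not tested.

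**Figure D5:**
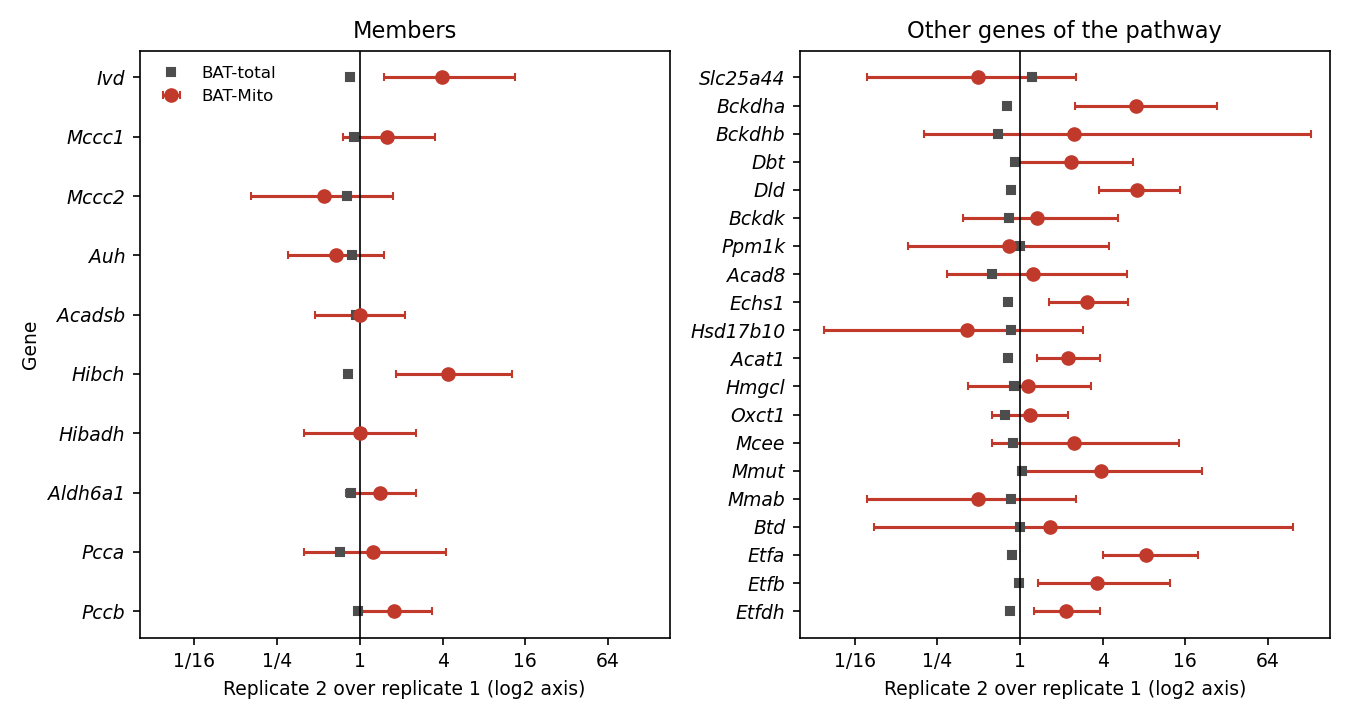
Ratio of replicate 2 to replicate 1 (x axis, log2 scale) for the members (left) and the other genes of the pathway with reads in BAT-Mito replicate 1 (right). Red circles with 95% counting intervals are BAT-Mito and grey squares BAT-total. Ivd (3.98), Hibch (4.42), Bckdha (7.05), Dld (7.09) and Etfa (8.29) lie right of 1.

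Of 24 other genes of the pathway (transamination, BCKDH and its regulators, shared thiolases and hydratases, propionate disposal, biotin supply and electron transfer), 23 were listed and 22 tested. Limma called 0 of the 22 in either direction, 1 had an unadjusted p under 0.05 against the 18.1% of all genes, and edgeR and DESeq2 also called 0. Their median log2 fold change was -0.78, or 0.45 above that of all genes, and BAT-Mito lay below BAT-total without overlap for 12, at the background of 52.1% given above. The subunits of BCKDH, which supply the members with substrate, were uneven. Bckdha, the E1 alpha subunit, had 213 and 172 in BAT-total and 33 and 235 in BAT-Mito, on 4 and 34 reads, a pattern between replicates like that of Ivd and Hibch. Bckdhb, the E1 beta subunit, had 148 and 103 in BAT-total and 8 and 21 in BAT-Mito, on 1 and 3 reads, at or under the floor of 3 reads set for detection. Its log2 fold change was -3.15 ± 0.67 (SE, adjusted p = 0.171 with limma). Dbt, the E2 core, had 148 and 136 in BAT-total and 58 and 138 in BAT-Mito (-0.66 ± 0.63).

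At the ends of that list, Mmaa, needed to supply the cobalamin cofactor of methylmalonyl-CoA mutase, had one of the 2 lowest fitted values, with Bckdhb. It had 37 and 31 in BAT-total and 0 and 14 in BAT-Mito, on 0 and 2 reads, and its fitted value of -3.17 ± 1.56 depends on the pseudocount (-1.58 with edgeR, above Bckdhb at -2.47). Mmab, which acts in the same cofactor pathway, was highest at 0.52 ± 0.56, with 22 and 19 in BAT-total and 42 and 21 in BAT-Mito on 5 and 3 reads. Ppm1k, the phosphatase that activates BCKDH, came second at -0.07 ± 0.41, with 32 in both BAT-total libraries and 33 and 28 in BAT-Mito. Of the 22 genes, 8 were above replicate 1 in BAT-Mito replicate 2 beyond the counting interval and 0 were below, or 36.4% against 7.91% of all genes and 18.2% of genes in the members' range of levels. The 8 included Dld, on 11 and 94 reads, and Etfa, on 8 and 80 reads, which were chosen after their values were seen. In BAT-total Dld (695 and 596) and Etfa (667 and 583) lay above the members' range of levels, so the 18.2% is not matched to them. Dld encodes the lipoamide dehydrogenase of BCKDH and related complexes, and Etfa a subunit of the flavoprotein that takes electrons from Ivd and Acadsb.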

How the data were processed

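RNA-seq of 2 BAT-Mito and 2 BAT-total libraries of WT mice was used. Libraries were made from 10 ng of RNA with a stranded total RNA kit, and fragmentation time was adjusted for mitochondrial samples, so preparation may have differed along with the fraction. According to the submitters' processing notes, reads were trimmed with Trimmomatic 0.39, aligned to mm10 with STAR 2.7.10a, counted with featureCounts 2.0.2 and normalised with DESeq2 1.30.1. The study's methods name other releases of some of these tools and leave out reads of several genes or positions. The authors deposited 1 table of a signal, counts divided by a size factor and rounded, for 17259 genes with 1 column per library.

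Steps of that signal gave whole reads for 100.0% of the BAT-Mito values of up to 200 reads, within 1 unit of a whole multiple. In BAT-total small values showed no steps, and depth there is unknown. The 8215 genes whose values averaged 10 or more over the libraries were compared as log2(value + 1). The test was limma (version 3.58.1, R 4.3.3) with neither trend nor robust prior, with Benjamini-Hochberg adjustment and a threshold of 0.05. Such fold changes are uncertain for low genes, since a BAT-Mito value moves by several units per read and a value of 0 exaggerates a decrease. edgeR 4.0.16 and DESeq2 1.42.0 were run as alternatives on BAT-Mito reads with BAT-total values taken as counts. Other alternatives changed the pseudocount, the filter, the scaling, the replicate block and the gene length, or left out each library. The recovery of reads and the gene-wise fits were tested on simulated data. Gene models and sequences came from GENCODE M21 (GRCm38), which placed 99.1% of the table's genes at identical coordinates, and copies were sought with BLAST 2.17.0.

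The members, the arms and the gene lists were chosen with earlier results of these data known. Named were all members, and of the other pathway genes those called, the 2 highest and 2 lowest fold changes, Bckdha, Bckdhb and Dbt. Dld, Etfa and Aox3 were added after their values were seen. Marker lists covered brown adipocytes (12 genes), liver (15), skeletal muscle (10), endothelium (5), macrophages (5), blood (5) and kidney (6, of which 0 were listed). Summed endothelial markers were 101 and 7 in BAT-Mito and 877 and 913 in BAT-total (most abundant Kdr), macrophage markers 283, 261, 73 and 75 (Mrc1) and blood markers 250, 635, 296 and 624 (Hbb-bs) in the same order. The values of 1 item are not reported here.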

Additional observations from a re-analysis of the deposited data

How the results depend on the processing

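No call on a member was made with the pseudocount of 10, the minimum mean of 50, TMM, median ratios, the trend option, edgeR or DESeq2. With all genes of any count tested, 1 member (Hibadh) was called lower, as were 20.8% of all genes. Scaled to the sum of all genes (CPM), and to that of nuclear genes, all 10 members and all 22 other genes of the pathway were called lower, as were 7963 and 7167 of all 8215 genes. The totals divided by in CPM were 218773335 and 171918657 in BAT-Mito and 1590096 and 1905303 in BAT-total. Auh was then at -6.53 and -3.35. With 1 library left out, 0 to 5 members were called lower (1 without BAT-Mito replicate 1, 5 without BAT-Mito replicate 2, where 41.1% and 47.0% of all genes were called lower), and among the other genes 0 to 1 were called higher and 0 to 14 lower (5.68% and 7.57% of all genes were called higher without BAT-Mito replicates 1 and 2). In these fits the lone library is assumed to vary like the other group. The members' median relative to all genes was 0.37, -0.03 with the pseudocount of 10, 0.11 with the minimum mean of 50 and -0.28 in CPM of all genes. It ran from 0.06 to 0.61 with 1 library left out. The leucine minus valine difference of 0.54 was positive throughout, at 0.25 without BAT-Mito replicate 1 and 0.82 without BAT-Mito replicate 2. A change of scaling moves all members of a library nearly alike, and filter, trend and block keep the fold changes. Agreement under those settings was therefore fixed in advance. The median of all genes moved from -1.23 to -0.66 (TMM), -0.55 (median ratios), -0.24 with edgeR and -0.10 with DESeq2. Signs turned for Mccc1, Acadsb and Pccb with TMM (0.33, 0.16 and 0.05), median ratios (0.44, 0.28 and 0.16), nuclear genes without a mitochondrial match, added after seeing the data (0.32, 0.16 and 0.04), edgeR (0.33, 0.13 and 0.07) and DESeq2 (0.46, 0.27 and 0.20). Ivd and Hibch turned with edgeR (0.09 and 0.01) and DESeq2 (0.18 and 0.11). With 1 library left out, Ivd ran from -1.78 to 0.17, Mccc1 from -0.62 to 0.05, Hibch from -1.98 to 0.14 and Auh from -0.14 to 0.42, turning sign without BAT-Mito replicate 1. The cause was not tested. Places in the BAT-total order per kb were kept by 2 of 10 members with the longest transcript and by 0 with the transcript of the longest coding sequence, added after seeing the data. With the replicate number as a block, limma called 0 members and 0 of all genes, against 66 higher and 362 lower without it. The labels state no pairing, and differences between replicates correlated at 0.112 over 8215 genes. Depth limits these results, since members rest on 5 to 36 reads in BAT-Mito.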

Other observations

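The table lists 44 genes annotated to valine, leucine and isoleucine degradation in KEGG, and 34 of them are not members. All 34 were tested, with a median log2 fold change of -0.84, close to the -0.86 of the members, and limma called 0 of them (5 at an unadjusted p under 0.05, against 18.1% of all genes tested). On reads, edgeR called 2 of the 34 higher in BAT-Mito and DESeq2 1, against 3.06% and 3.09% of all genes tested, and the 1 described here was named after its values were seen. Aox3, an aldehyde oxidase that is abundant in liver, had 300 and 28 in BAT-Mito and 5 and 3 in BAT-total (edgeR log2 fold change 5.82, adjusted p = 0.00415; limma 4.25 ± 1.38, adjusted p = 0.271). Aox3 was highest in BAT-Mito replicate 1, the library in which the 15 liver markers summed to 14121, against 1160 in replicate 2. Alb, the most abundant of those markers, had 4943 and 393 in BAT-Mito and 97 and 3 in BAT-total. The part of liver RNA in this value was not tested.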
